A study of Mus musculus with 42 samples.

Results

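The acute phase protein genes described here are Saa1, Saa2, Saa3, Saa4, Orm1, Orm2, Hp, Lcn2, Apcs and Crp, 10 of the 49585 genes counted by RNA sequencing in mice that differ in the tumour suppressor gene Trp53. They were picked by name as plasma proteins of the acute phase response, with liver of AD mice against liver of Null mice in view, so their values in that contrast are given as a description with no test. The acute phase response is the change in plasma protein synthesis that follows infection or injury. Interleukin 6 and interleukin 1 released by macrophages and stromal cells act on hepatocytes, where STAT3, C/EBP factors and NF-kB raise transcription of proteins that bind lipid, iron, haemoglobin or microbial surfaces. Production of albumin and transthyretin falls in the same response.

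All mice were 4 weeks old, had germline changes of p53 and came from a mixed BALB/C and C57BL6 background. The genotypes were p53-null (Null), p53 +/- (Het), p53 AD/- (AD) and p53 RP/- (RP), the last 2 with the named allele opposite a null one. Unirradiated (basal) organs were liver, intestine and pancreas, with 3 AD and 3 Null mice for each organ, and thymus, with 3 AD, 3 Het and 2 Null mice. Thymus was also collected 4 h after irradiation, with 4 mice for every one of the genotypes. Libraries carry the genotype and the number of the animal (AD-700), and levels are in CPM, counts scaled to the library total, unless another scale is named. Values after ± are standard errors of a fitted log2 difference, or SD where written, and the p-values describe the spread among these few mice. In whole organs, fewer cells of a type and less RNA per cell cannot be told apart.

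Total counts per library ran from 24340398 to 34772519 in intestine, from 26000528 to 32487187 in liver, from 19861977 to 24815911 in pancreas and from 26398761 to 33331829 in thymus. Trp53 itself averaged 4.63 CPM in AD and 3.95 CPM in Null liver, and 20.1 to 35.8 CPM over the 4 irradiated thymus groups, and transcript was present in every Null group. The labelled tissues carried their markers. The summed level of 12 hepatocyte markers was 120021 to 151463 CPM in liver and 25.2 to 301 CPM in thymus, 6 acinar markers summed to 280662 to 364942 CPM in pancreas, 6 enterocyte markers to 14121 to 22072 CPM in intestine and 8 thymocyte markers to 6555 to 9942 CPM in thymus. Some libraries stood apart. Irradiated Het-631 thymus had less of the macrophage markers (491 CPM summed over 12 genes, against 556 to 929 in the other 23 thymus libraries), of the neutrophil markers (70.2 against 110 to 599 CPM) and of Aire, the regulator of self antigens in medullary thymic epithelium (6.17 against 11.2 to 28.4 CPM). Irradiated AD-727 thymus had the highest hepatocyte sum in thymus, 301 CPM. Acinar markers reached 901 CPM in AD-702 liver, where the other 5 livers had 5.04 to 28.5 CPM, and ranged from 563 to 72409 CPM in intestine. Xist, the transcript of the inactive X chromosome, was high in 1 liver of each genotype, AD-702 at 273 CPM and Null-859 at 285 CPM, and under 0.44 CPM in the other 4.

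The 4 serum amyloid A genes lie together on chromosome 7 of GRCm38 between positions 46711998 and 46754313, in the order Saa3, Saa4, Saa1 and Saa2. Their products are apolipoproteins of high density lipoprotein. Saa1 and Saa2 are the acute phase forms made by the liver, Saa3 is made in mouse largely outside the liver, by macrophages and adipocytes among others, and Saa4 is the constitutive form, known for little induction. Their promoters are shown because the cluster holds both induced and constitutive genes, and Saa4 was the member that stood apart in liver. The sequences are from RefSeq on GRCm38.p6 and run from 250 bases before to 50 bases after the annotated start. Capitals mark matches on either strand to TTNNGNAA, the core of a C/EBP site.
Saa1 (chr7:46742931-46743230, minus strand): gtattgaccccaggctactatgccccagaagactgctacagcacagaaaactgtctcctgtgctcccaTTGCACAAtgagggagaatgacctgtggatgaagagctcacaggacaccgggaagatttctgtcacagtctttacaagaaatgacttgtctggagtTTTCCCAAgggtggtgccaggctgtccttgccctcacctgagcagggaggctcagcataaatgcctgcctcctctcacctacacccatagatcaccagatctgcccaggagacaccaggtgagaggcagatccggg
Saa2 (chr7:46751583-46751882, plus strand): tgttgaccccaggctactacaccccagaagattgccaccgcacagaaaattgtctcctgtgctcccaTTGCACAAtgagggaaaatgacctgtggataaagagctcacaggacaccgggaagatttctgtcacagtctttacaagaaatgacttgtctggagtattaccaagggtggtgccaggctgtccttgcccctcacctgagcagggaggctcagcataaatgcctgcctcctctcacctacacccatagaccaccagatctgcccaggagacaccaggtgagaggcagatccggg
Saa3 (chr7:46715627-46715926, minus strand): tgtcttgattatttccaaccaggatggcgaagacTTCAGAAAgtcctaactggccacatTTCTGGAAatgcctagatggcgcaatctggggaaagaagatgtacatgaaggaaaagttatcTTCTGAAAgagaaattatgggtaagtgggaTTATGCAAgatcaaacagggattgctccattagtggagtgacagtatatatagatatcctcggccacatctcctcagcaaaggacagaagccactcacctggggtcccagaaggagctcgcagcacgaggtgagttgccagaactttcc
Saa4 (chr7:46732554-46732853, minus strand): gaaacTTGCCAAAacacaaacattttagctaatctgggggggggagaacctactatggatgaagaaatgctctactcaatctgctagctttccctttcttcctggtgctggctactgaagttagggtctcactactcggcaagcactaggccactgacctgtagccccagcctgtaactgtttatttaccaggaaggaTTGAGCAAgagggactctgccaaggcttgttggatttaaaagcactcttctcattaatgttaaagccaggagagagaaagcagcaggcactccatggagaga
Aligned over their length, the Saa1 and Saa2 windows were 95.4% identical, and the Saa4 window was 44% identical to Saa1, 43% to Saa2 and 42.7% to Saa3. RefSeq windows were matched for 8 of the 10 members, all but Orm1 and Hp. The C/EBP letters matched in 7 of the 8, and they match in 40.7% of all 32851 promoter windows, so a match is common. The STAT letters TTCNNNGAA, found in 8.3% of windows, matched once, at 244 bases before the start of Apcs. The NF-kB core, GGG and TTCC with 3 bases of any kind between them, is found in 5.56% of windows and matched in none of the 8. No match overlapped a match of another motif, and a match of letters is not a measured binding site.

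The members differed widely in level in liver. On a scale per exon length (TPM, which scales counts by the union of annotated exons and by library total), Hp led with a median of 3081 over the 6 livers (range 2531 to 4584). Haptoglobin binds free haemoglobin. Orm1, an orosomucoid that carries basic and lipophilic compounds in plasma, followed at 1856 TPM (1593 to 2285), and the pentraxin Apcs, serum amyloid P, at 531 TPM (420 to 786). These 3 ranges did not overlap one another. Saa4 at 236 TPM (127 to 401) and the pentraxin Crp at 147 TPM (110 to 158) overlapped. Orm2 at 35.4 TPM (27.2 to 88.8) and Saa1 at 26.7 TPM (13.9 to 62.3) formed a lower, overlapping pair. Saa2 at 8.09 TPM, Lcn2, a siderophore-binding lipocalin of neutrophils and inflamed epithelium, at 7.42 TPM and Saa3 at 4.82 TPM were the lowest, with ranges that overlapped. By exon union, the constitutive Saa4 was above the inducible Saa1, Saa2 and Saa3 with no overlap of the ranges. The union is 2478 bases for Saa1, 2518 for Saa2 and 3444 for Crp. Their longest coding transcripts have 609, 652 and 1695 bases, where Saa4 has 2094 by both measures. Per transcript Saa1, Saa2 and Crp could stand higher. Their places in this order, and the gap to Saa4, depend on the length used.

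In liver, Saa4 stood at 388, 332 and 292 CPM in AD-700, AD-701 and AD-702, and at 158, 150 and 125 CPM in Null-1087, Null-859 and Null-923. The lowest AD liver was above the highest Null liver, and the fitted log2 difference was 1.19 ± 0.13. The groups did not overlap for 1 of the 10 members, Saa4, and they did not overlap for 15.6% of the 15755 genes tested. By edgeR 0.267% of those genes were called. The members were picked with this contrast in view, so these values are a description and nothing is read from either share. Within 250 kb of Saa4, members aside, 10 genes were tested by edgeR's quasi-likelihood test with Benjamini-Hochberg adjustment. Of these 0 were called, with log2 differences from -0.62 to 1.10. Saal1, which lies next to the cluster, differed by 0.27 ± 0.18 (adjusted p 0.696) and the lactate dehydrogenase gene Ldha by -0.02 ± 0.12 (adjusted p 0.967).

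**Figure D1:**
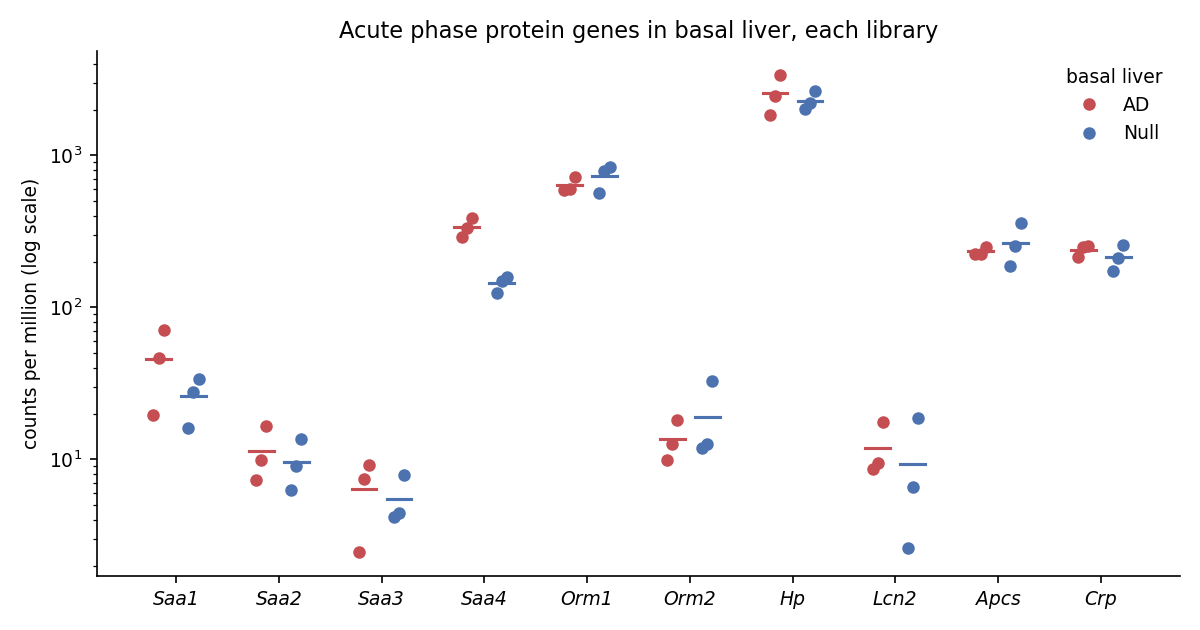
CPM of each member in 3 AD and 3 Null basal livers on a log scale, where points are libraries and short lines are group means. The Saa4 points separate by genotype (292 to 388 against 125 to 158 CPM), and the points of the other 9 members overlap.

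The inducible amyloid genes were variable within each genotype. Saa1 stood at 71.2, 46.6 and 19.5 CPM in AD-700, AD-701 and AD-702 and at 27.6, 34.0 and 16.1 CPM in Null-1087, Null-859 and Null-923, a log2 difference of 0.79 ± 0.58. AD-702 lay among the Null livers and the groups overlapped. Saa2 followed with 16.6, 9.90 and 7.35 CPM in AD and 9.05, 13.6 and 6.29 CPM in Null (0.19 ± 0.37). Saa1 and Saa2 transcripts are 87.3% identical with a shared run of 76 bases, so reads may have been split between them, and their sum was 87.8, 56.5 and 26.8 CPM in AD and 36.7, 47.6 and 22.4 CPM in Null. Saa3 was at 9.22, 7.36 and 2.46 CPM in AD and 7.85, 4.14 and 4.46 CPM in Null (0.17 ± 0.51). AD-702 was the lowest of the AD livers for Saa1, Saa2, Saa3 and Saa4.

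The carriers and scavengers did not follow Saa4. Orm1 was at 719, 593.1 and 599 CPM in AD and 565, 837 and 784 CPM in Null (-0.23 ± 0.14), and Orm2 at 12.7, 9.94 and 18.2 CPM in AD and 12.5, 32.5 and 11.9 CPM in Null (-0.51 ± 0.48). Orm1 and Orm2 transcripts are 91% identical with a shared run of 141 bases, so their split is uncertain too. Hp was at 3398, 2463 and 1846 CPM in AD and 2636, 2014 and 2195 CPM in Null (0.13 ± 0.23). Its spread within AD exceeded the difference between genotypes. Lcn2 was at 9.48, 8.67 and 17.6 CPM in AD and 6.53, 18.8 and 2.604 CPM in Null (0.32 ± 0.80).

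Neither pentraxin separated the genotypes. Apcs, the main acute phase pentraxin of mice, stood at 251, 225 and 223 CPM in AD and 187, 361 and 253 CPM in Null (-0.23 ± 0.21). Crp, which responds strongly in humans and weakly in mice, stood at 248, 253 and 216 CPM in AD and 174, 258 and 211 CPM in Null (0.13 ± 0.14). Null-859 was the highest Null liver for Saa1, Saa2, Orm1, Orm2, Lcn2, Apcs and Crp. All 10 members together summed to 5124, 3948 and 3241 CPM in AD and 3783, 3722 and 3610 CPM in Null. After TMM scaling of these sums the log2 ratio of means was 0.11 with a pooled SD of 0.24. Hp made up 54.1 to 69.7% of the summed CPM. The genes nearest to the members' mean profile over the 6 livers, by root-mean-square difference in SD units, were Rai1 (0.0802), Lfng (0.098), Rnf213 (0.157), Ing4 (0.158), Afg3l1 (0.159), Arrdc3 (0.164), Gm45457 (0.212) and Glg1 (0.219), out of 11421 genes compared.

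The rest of the acute phase pathway was read from lists. In AD against Null liver, edgeR with Benjamini-Hochberg adjustment called 0 of 22 tested other positive acute phase genes (fibrinogen chains, complement factors, Hamp, Serpina3n and others; median log2 difference 0.04), 0 of 9 negative acute phase genes such as Alb and Ttr (median -0.18) and 0 of 27 inducing cytokines, receptors and factors (median 0.14), where the median over all genes was 0.00. At an unadjusted edgeR p under 0.05 the whole contrast held 1489 genes. DESeq2 called 2 of the pathway genes, Cebpa and Junb. The share of all genes that DESeq2 called was not counted, so nothing is read from this count. Cebpa, the C/EBP factor of resting hepatocytes, was at 232, 241 and 226 CPM in AD and 175, 150 and 165 CPM in Null. Its groups did not overlap, as for 15.6% of the 15755 genes tested, and edgeR did not call it (adjusted p 0.131). Socs3, the feedback inhibitor that STAT3 induces, was at 31.6 CPM in AD-702 and at 4.31 to 8.28 CPM in the other 5 livers. Il6 counts were near the floor in every liver, at 0 to 0.12 CPM. Hepatocyte markers (0 of 12 called, median -0.04) and macrophage markers (0 of 12 called, median -0.13) showed no call either, and the neutrophil marker sum was 3.05 to 7.40 CPM over the 6 livers.

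Across basal tissues of AD and Null mice, all 10 members were called higher in liver than in intestine, in pancreas and in thymus by edgeR's quasi-likelihood test with Benjamini-Hochberg adjustment. Of all 24431 genes tested, 28.5%, 30% and 31.6% were higher in liver in these comparisons. Several of the plasma proteins typical of hepatocytes differed by very large factors. Saa4 averaged 241 CPM in liver (SD 110, n = 6) and had 0 counts in all 6 pancreas libraries, at least 1734-fold lower with a floor of 3 counts per library. Apcs averaged 250 CPM in liver (SD 59.4, n = 6) and had 0 counts in all 5 basal AD and Null thymus libraries, at least 2602-fold lower. Saa1 had 0 counts in all pancreas libraries as well, at least 258-fold lower. Hp averaged 2425 CPM in liver and 18.6 CPM in thymus, 131-fold lower, and Orm1 683 and 3.42 CPM, 200-fold lower. Mean CPM in thymus was only 9.2-fold lower for Saa1, 13-fold lower for Saa2 and 4.9-fold lower for Orm2.

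Saa3 and Lcn2 were the members with the least contrast between liver and thymus. Saa3 averaged 5.92 CPM in liver (SD 2.604, n = 6) and 8.24 CPM in basal thymus (SD 0.88, n = 5), lower in liver on this scale, and 0.77 ± 0.32 higher in liver on the log2 scale after TMM scaling (edgeR adjusted p 0.0321), so its direction depends on the scaling. Lcn2 averaged 10.6 CPM in liver and 8.93 CPM in thymus, and 1.46 ± 0.58 higher in liver after TMM scaling (edgeR adjusted p 0.0306). With the mouse as a replicate block 8 members were called against thymus and these 2 were not. Neither was called without AD-700 or without AD-701 (all tissues of the mouse) (8 members called), Saa3 was not called without Null-859 or Null-1087 and Lcn2 not without AD-702 (9 called each). The median gene was 0.53 lower in liver than in thymus on the TMM scale.

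**Figure D2:**
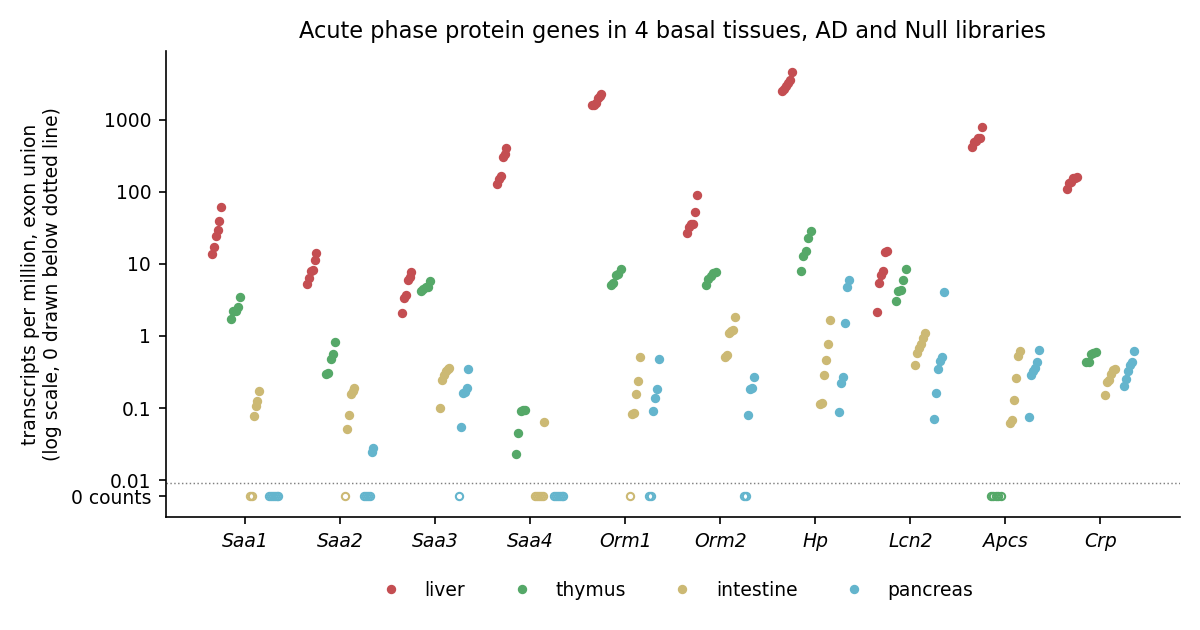
TPM of each member in every basal library of AD and Null mice on a log scale, by tissue, with 0 counts drawn below the dotted line. Liver is the highest tissue for every member but Saa3 and Lcn2, whose liver and thymus points overlap, and 1 pancreas library (Null-859) also reaches the liver range of Lcn2.

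In intestine 5 members passed the filter on low counts, and AD against Null called 0 of them by edgeR (0.015% of 20011 genes called) and 0 by DESeq2, with 1 at an unadjusted p under 0.05. That one was Lcn2, at 1.16, 1.32 and 1.02 CPM in AD-700, AD-701 and AD-702 and at 0.74, 0.49 and 0.86 CPM in Null-1087, Null-859 and Null-923. The groups did not overlap, as for 17.2% of the genes tested, and the log2 difference of 0.85 ± 0.30 had an adjusted p of 0.770 in edgeR. In pancreas 3 members passed the filter, 0 were called by edgeR (0.0548% of 14604 genes called) or DESeq2, and 0 had an unadjusted p under 0.05. Null-859 pancreas had Lcn2 at 10.2 CPM, where the other 5 had 0.12 to 0.88 CPM, and it also had the highest Hp at 8.91 CPM. Crp was at 0.97, 0.89 and 1.38 CPM in AD and 0.75, 0.65 and 0.59 CPM in Null, groups that did not overlap, as for 12.5% of the genes tested (0.70 ± 0.38, edgeR adjusted p 0.682).

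In basal thymus 8 members passed the filter, all but Saa4 and Apcs. AD against Null and Het against Null share the 2 Null libraries. Each called 0 members by edgeR (0.0676% of 22173 genes called in each) and 0 by DESeq2, with 1 member at an unadjusted p under 0.05, Hp in AD and Orm1 in Het. The AD and Null groups did not overlap for 2 of the 10 members, Hp and Orm1, and for 23.1% of the genes tested. Hp was at 24.3, 30.1 and 16.8 CPM in AD-700, AD-701 and AD-702, at 15.8, 15.95 and 29.2 CPM in Het-697, Het-703 and Het-855 and at 8.25 and 13.3 CPM in Null-859 and Null-923. Both Null thymuses were below every AD and Het thymus, and the log2 difference of AD from Null was 1.14 ± 0.42 (edgeR adjusted p 0.618). The summed level of 8 adipocyte markers moved with it, at 521 to 694 CPM in AD, 265 to 682 CPM in Het and 182 to 184 CPM in Null. The hepatocyte marker sum was 40.8 to 49.8 CPM in AD, 30.3 to 41.4 CPM in Het and 25.2 to 32.1 CPM in Null. The part of either sum in the difference was not tested. Orm1 was at 3.60, 4.34 and 3.90 CPM in AD-700, AD-701 and AD-702, at 2.54, 4.10 and 6.09 CPM in Het-697, Het-703 and Het-855 and at 2.54 and 2.72 CPM in Null-859 and Null-923. Het-697 lay with the Null libraries, and the log2 difference from Null was 0.58 ± 0.28 in AD (edgeR adjusted p 0.660) and 0.69 ± 0.28 in Het (edgeR adjusted p 0.594).

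Irradiated Het thymus, with 1 wild-type Trp53 allele, differed from irradiated Null in many genes, with 19.2% of 22206 genes called and 9.79% higher. Genes on the list of the inducing side of the acute phase pathway rose there, the feedback inhibitor Socs3 among them. Of 31 tested inducing cytokines, receptors and factors 13 rose and 0 fell by edgeR with Benjamini-Hochberg adjustment, with a list median of 0.21 where the median gene was at -0.01. The interleukin 1 gene Il1b was at 12.8, 13.0, 13.3 and 18.5 CPM in Het-594, Het-595, Het-603 and Het-631 and at 2.16 to 3.73 CPM in the 4 Null libraries (2.30 ± 0.18, adjusted p 4.76e-08). Il1a (2.73 ± 0.18), Il6 (1.83 ± 0.36) and Lif, a cytokine of the interleukin 6 family (1.79 ± 0.26), rose as well. All 4 Het libraries were above all 4 Null libraries for Il1a, Il1b, Il6 and Lif, with Het-631 the highest of the 4 for each. The share of all genes separated in this way was not counted, so nothing is read from the separation. Smaller rises were called for the AP-1 factor Junb, for Cebpd, for the oncostatin receptor Osmr, for Socs3 and for Stat3 (0.28 ± 0.06). Among 21 tested other positive acute phase genes 3 rose and 0 fell. They were the metallothioneins Mt1 (1.19 ± 0.22) and Mt2 (1.33 ± 0.39) and the endotoxin co-receptor Cd14 (0.80 ± 0.17). Of 10 receptors of acute phase proteins 3 rose, the amyloid A receptor Tlr2 (0.67 ± 0.17), Tlr4 (0.47 ± 0.13) and the haptoglobin-haemoglobin receptor Cd163 (0.76 ± 0.18).

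**Figure D3:**
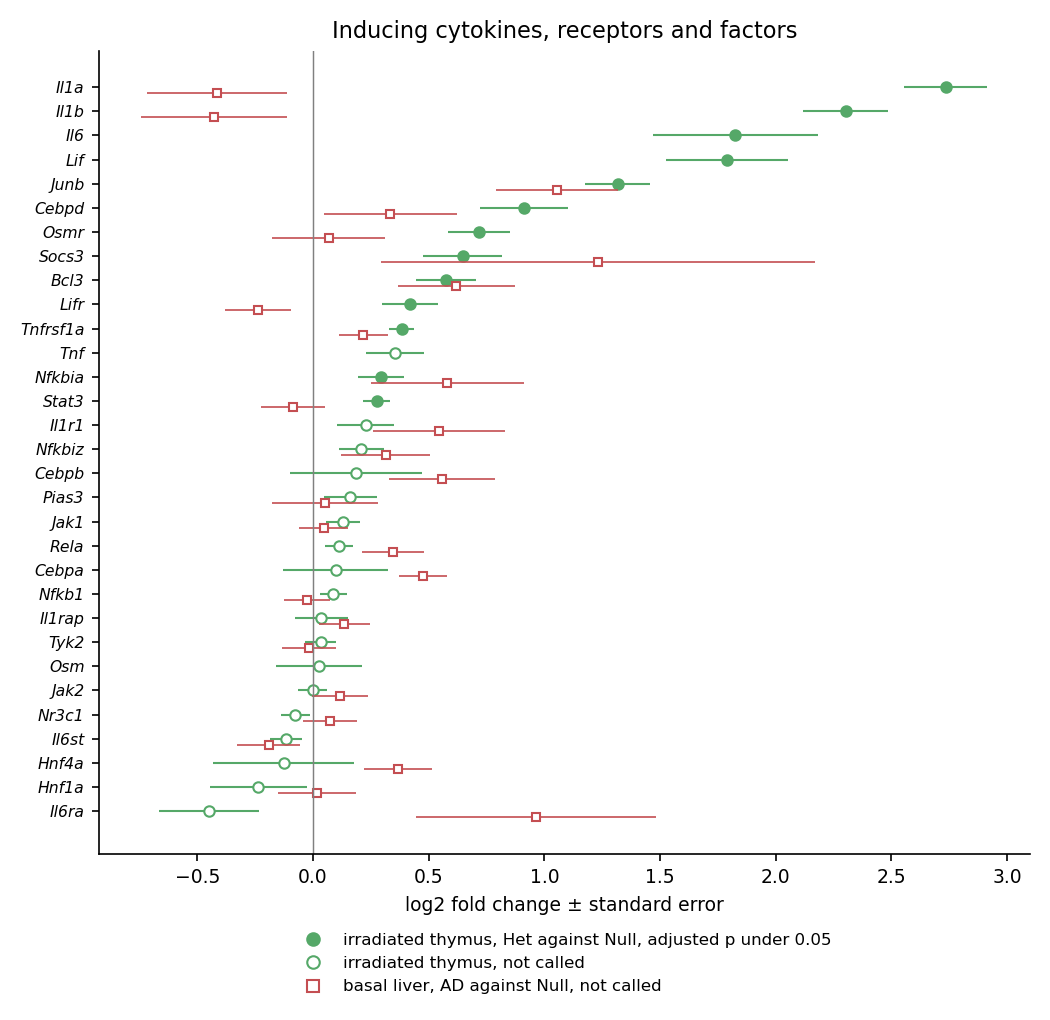
Log2 fold change ± standard error of the inducing genes, with circles for irradiated thymus (Het against Null, 4 and 4 mice) and squares for basal liver (AD against Null, 3 and 3 mice). Filled circles are the 13 genes called in thymus, led by Il1a at 2.73, and 0 squares are called.

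Of 9 tested members, all but Apcs, 1 was called higher in irradiated Het against Null by edgeR and 1 by DESeq2, a share near the 9.79% of all genes called higher. Crp was at 1.89, 1.96, 1.81 and 1.48 CPM in Het-594, Het-595, Het-603 and Het-631 and at 1.16, 0.98, 1.33 and 1.32 CPM in Null-593, Null-604, Null-856 and Null-857. All 4 Het values were above all 4 Null values, a separation whose share over all genes was not counted (0.62 ± 0.21, edgeR adjusted p 0.0448). The call sits at the threshold. It was lost with no filter (edgeR adjusted p 0.0936), with only the compared groups in the fit (0.0692) and with Xist as a covariate (0.0855). Leaving out any library other than Het-631 lost it too (0.0607 to 0.116). As annotated, Crp spans 134977 bases and overlaps a processed pseudogene, Gm38051, on the same strand. Reads in that overlap cannot be assigned with certainty.

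For Saa1, Saa3 and Lcn2 the Het group was divided by a single library. Saa1 stood at 5.54, 5.97 and 6.31 CPM in Het-594, Het-595 and Het-603 and at 1.06 CPM in Het-631, against 3.86, 4.31, 3.58 and 3.86 CPM in the Null libraries. Het-631 was below, and the other 3 were above, every Null library. Saa3 stood at 12.1, 12.4 and 12.2 CPM and at 2.50 CPM in Het-631, against 7.09 to 11.1 CPM in Null. Lcn2 stood at 12.7, 10.4 and 28.9 CPM and at 2.69 CPM in Het-631, against 5.66 to 8.56 CPM in Null. With all libraries none was called by edgeR, with 0.33 ± 0.34 for Saa1 (adjusted p 0.565), 0.22 ± 0.35 for Saa3 (0.727) and 0.91 ± 0.48 for Lcn2 (0.218). Without Het-631, where 11.9% of all genes were called higher, 5 members were called higher by edgeR, Saa1 (0.66 ± 0.16, adjusted p 0.00502), Saa2 (1.03 ± 0.27, 0.0089), Saa3 (0.54 ± 0.17, 0.0279), Lcn2 (1.25 ± 0.32, 0.0132) and Crp (0.71 ± 0.22, 0.0222). Het-631 was singled out after its low Saa1, Saa3 and Lcn2 were seen, so these calls partly restate that choice. The macrophage and neutrophil marker sums divide the group in the same way, at 793 to 929 and 213 to 599 CPM in the 3 libraries and at 491 and 70.2 CPM in Het-631, and Aire does too, at 18.5, 21.6 and 23.4 CPM against 6.17 CPM. Xist was at 919 to 1136 CPM in the 3 and 133 CPM in Het-631, while the Null libraries had 1170, 1089, 3.03 and 34.4 CPM. The part of these in the difference was not tested. The thymic epithelium sum did not set Het-631 apart, at 1355 CPM beside 1376 to 1507 CPM in the other 3, against 928 to 995 CPM in Null.

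**Figure D4:**
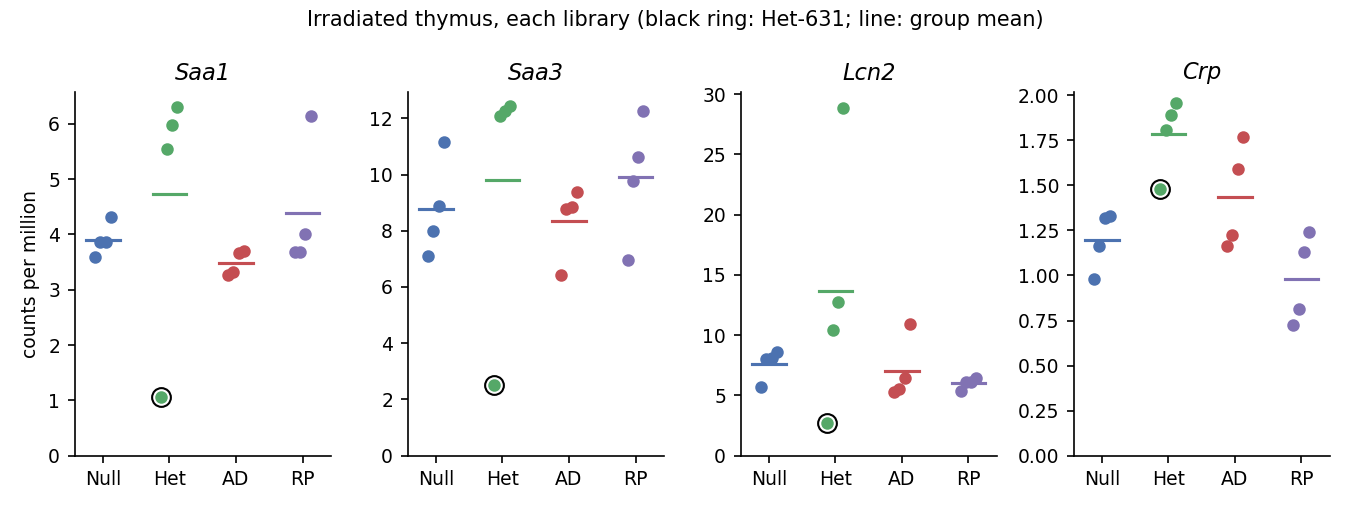
CPM of Saa1, Saa3, Lcn2 and Crp in irradiated thymus, 4 libraries per genotype, with group means as lines and Het-631 ringed. Het-631 lies below every other library for Saa1, Saa3 and Lcn2 (1.06, 2.50 and 2.69 CPM) but above every Null library for Crp (1.48 CPM).

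Irradiated AD and RP thymus were set against the same 4 irradiated Null libraries. AD called 0 of 9 tested members by edgeR (0.027% of genes called) and 0 by DESeq2, with 1, Orm1, at an unadjusted p under 0.05. RP called 0 of 9 by edgeR (0.0315% of genes called) and 0 by DESeq2, with 0 at an unadjusted p under 0.05. The inducing genes had 0 calls among 31 tested in either comparison. Saa4 was at 1.23 CPM in AD-727 and at 0 to 0.349 CPM in the other 23 thymus libraries. That library carried the highest hepatocyte marker sum, with Alb at 177 CPM, and the highest Apcs, 0.27 CPM.

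Irradiated thymus was then set against basal thymus of the same genotype, from different mice. By edgeR 0 of 9 tested members were called in Null (0.131% of 23605 genes called), 0 in Het (16.8% called) and 0 in AD (0.546% called). DESeq2 called 0 in each. At an unadjusted p under 0.05 there was 1 member in Null (Orm1), 0 in Het and 1 in AD (Saa4). In Het 13 of 31 tested inducing genes rose and 0 fell by edgeR with Benjamini-Hochberg adjustment. Of all genes 16.8% were called in either direction, and the share called higher was not counted with all libraries. Without Het-631, where 9.44% of all genes were called higher, 3 members were called higher in the Het comparison, Saa1, Saa3 and Lcn2, and the same choice of library stands behind them.

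Over the 24 thymus libraries member levels were compared with markers of particular cell types. Log2 levels of 7 members with counts in every library and a mean of at least 1 CPM were set against log2 sums of 5 marker lists, 35 relations in all, with 100000 permutations each and Benjamini-Hochberg adjustment over the 35. Hp moved with the adipocyte sum (Pearson r 0.866, Spearman rho 0.883, permutation p 1e-05 for both, the smallest the permutations can give, adjusted p 0.000175). It held without the 2 most extreme libraries (r 0.882), within the 16 irradiated (r 0.890) and within the 8 basal libraries (r 0.857). With the hepatocyte sum Hp had r 0.432 and rho 0.549 (adjusted permutation p 0.0869 and 0.0325). That r was 0.417 within irradiated and 0.916 within basal libraries. Lcn2 moved with the neutrophil sum (r 0.967, rho 0.928, permutation p 1e-05 for both, adjusted p 0.000175), with r 0.921 without the 2 most extreme libraries, 0.989 within irradiated and 0.835 within basal libraries. Lcn2 also followed the macrophage sum (r 0.780, rho 0.637, adjusted permutation p 0.000233 and 0.00875).

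Saa1 and Saa3 followed the macrophage sum less tightly. For Saa1 r was 0.723 and rho 0.596 (adjusted permutation p 0.000262 and 0.0222), with r 0.711 without the 2 most extreme libraries (Het-594 and Het-603), 0.746 without Het-631, which is lowest in both measures, 0.733 within irradiated and 0.601 within basal libraries. For Saa3 r was 0.670 and rho 0.578 (adjusted permutation p 0.00273 and 0.0231), with r 0.659 without the same 2 libraries, 0.644 without Het-631, 0.692 within irradiated and 0.342 within basal libraries. Orm1 followed the adipocyte sum with r 0.624 and rho 0.694 (adjusted permutation p 0.00577 and 0.00268), r 0.716 without the 2 most extreme, 0.440 within irradiated and 0.892 within basal libraries. Orm2 went the other way with the adipocyte sum, at r -0.514 and rho -0.468 (adjusted permutation p 0.044 and 0.06), with r -0.575 without the 2 most extreme, -0.728 within irradiated and -0.169 within basal libraries. Saa1 with the neutrophil sum had r 0.676 and rho 0.473 (adjusted permutation p 0.0109 and 0.06). That r fell to 0.436 without the 2 most extreme libraries, Het-603 and Het-631, and to 0.59 without Het-631 alone. It was 0.651 within irradiated and 0.963 within basal libraries. Of the 35 relations 8 had an adjusted Pearson p under 0.05, and the libraries share depth, organ and, by group, genotype.

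**Figure D5:**
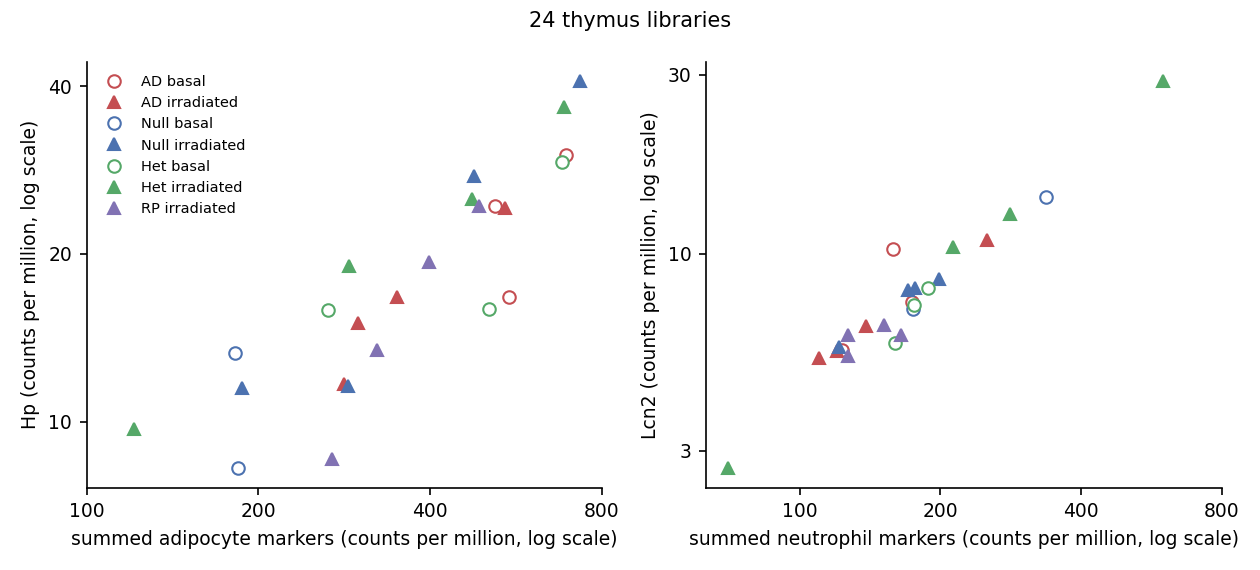
Hp against the summed adipocyte markers and Lcn2 against the summed neutrophil markers in 24 thymus libraries, CPM on log axes, with genotype as colour and irradiated libraries filled. Points rise together in both panels (r 0.866 and 0.967), and Het-631 is the lowest point for Lcn2.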

How the data were processed

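RNA sequencing counts of 42 libraries were used as the authors deposited them, in 1 table of raw counts per gene. The submitters' processing notes name STAR 2.6.0b, the GRCm38 build and DESeq2, with no role for each. The sources used here do not give the counting tool, annotation, strandedness, sex or irradiation dose, so reads of genes that share sequence or overlap cannot be assigned with certainty. Columns were matched to samples by animal, genotype and tissue in the column name, and 8 basal thymus columns without a tissue were the only ones left for their animals. Gene symbols, positions and exon lengths came from GENCODE M21, which matched 49326 identifiers and missed 259.

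Fits used R 4.3.3, edgeR 4.0.16 (filterByExpr, TMM, robust quasi-likelihood F test) and, as an alternative, DESeq2 1.42.0. A call is a Benjamini-Hochberg adjusted p under 0.05 over all tested genes. For comparisons between genotypes, libraries of 1 organ and state were fitted together. Irradiated against basal thymus used a fit of all 24 thymus libraries. Comparisons between organs used a fit of the 23 basal AD and Null libraries. CPM in the text is unscaled by TMM. Fits were checked on simulated counts with known changes. The floor is 3 counts per library and covers counting error only. The members and lists were chosen with earlier results of these data known, and the thymic epithelium list and the relations over thymus were added after the values were seen. Named genes were all members, up to 4 called genes per list and direction by size, marker sums and the 8 genes of most similar liver profile. Saal1, Ldha, Cebpa, Socs3, Aire, Alb, Ttr and Xist values, and the genes listed as examples beyond these, were chosen after their values were seen. A chi-square test of counts over genes gave 4.04 to 244 per degree of freedom in 49 pairs of libraries of 1 group, above sampling noise in each. Tissues pair by animal number in the labels, and for 33 same-mouse pairs the correlation of residuals had a median of 0.134 (-0.0168 to 0.577).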

Additional observations from a re-analysis of the deposited data

Results flagged for a closer look

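Groups of 4 libraries were examined for a single library far from the other 3 on the log2 CPM scale, 34 groups in all, and chance marks about 1 in 20. It marked 2. Saa1 in irradiated Het thymus was at 0.157 log2 CPM in Het-631, where the nearest other library was at 2.56. Saa3 in irradiated Het thymus was at 1.34 log2 CPM in Het-631, where the nearest other library was at 3.66. Both lie in 1 library, so they are not separate events. Het-631 also had the lowest Lcn2 and Saa2 of the 24 thymus libraries, at 2.69 and 0.189 CPM, and its Hp of 36.7 CPM was the second highest.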

How the results depend on the processing

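Of 198 alternative values 170 kept the direction and the side of the threshold or stayed near the main value. Only the Crp difference was checked for a reversed direction, and 0 of its values were reversed. The ratio of summed members in liver changed sign on leaving out 1 library and was still counted as near. Members called in irradiated Het against Null thymus numbered 1, but 0 with no low count filter, 0 with only the compared groups, 0 with an Xist covariate and 0 to 5 on leaving out 1 library, with 5 without Het-631. In Het irradiated against basal thymus the count was 0, and 0 to 3 on leaving out 1 library. In pancreas an Xist covariate called 1 member, Lcn2, against 0. The share of all genes called in that fit was not counted, so nothing is read from the call. Pancreas Lcn2 was high in a single library, Null-859, at 10.2 CPM. Pathway genes called in liver were 0, but 3 with no filter (Cebpa, Hnf4a, Junb), 2 with DESeq2 (Cebpa, Junb) and 1 with an Xist covariate (Cebpa). Leaving out 1 library gave 0 to 1, with Il6ra called without Null-859. For these alternative fits the share of all genes called was not counted. The log2 ratio of summed members in liver, on TMM-scaled CPM, was 0.11, 0.65 for Saa1 and Saa2 only, and -0.07 to 0.26 on leaving out 1 library. The inducing genes called in irradiated Het against Null were 11 to 16 on leaving out 1 library. With the mouse as a replicate block 10 members were called in liver against intestine, 10 against pancreas and 8 against thymus, where Saa3 and Lcn2 were lost. Both were also lost with no filter (8 called), and leaving out a mouse gave 8 to 10. The causes were not tested. The Saa4 ratio, the inducing genes, the Xist covariate in irradiated thymus, the relations without Het-631 and their alternatives were chosen after seeing the data. With 3 livers per genotype small changes could not be called, and Saa1, Saa2, Saa4, Orm1 and Apcs had too few counts in intestine and pancreas to be tested.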
